A study of Mus musculus with 15 samples.

Results

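Microglia sorted from the brains of 18-month-old mice given PLX5622 were compared with the high autofluorescent microglia of untreated mice of the same age. The comparison uses 9 of the 15 libraries of the series, which were chosen by their labels and not by any measured value. The PLX5622 group has 4 libraries, and the untreated group, called AF-high here, has 5. Low autofluorescent cells of untreated mice aged 18 months (AF-low, n = 3) and microglia of untreated mice aged 3 months (young, n = 3) entered the same fit. There they added to the estimate of spread, on which the calls depend, and the text gives their levels for some genes only. A gene that fell or rose was lower or higher in PLX5622 than in AF-high libraries. Neither word says which group changed. No genotype or strain is named for any group. The labels call the libraries biological replicates. Whether a library is 1 animal or a pool, how PLX5622 was dosed, and whether treated cells were gated on autofluorescence is not stated in the labels. The compound and the gate therefore cannot be told apart, and p-values reflect the spread among the libraries only.

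Microglia are the resident macrophages of the brain. They depend on signals through the CSF1 receptor, a tyrosine kinase at the cell surface that binds CSF1 and interleukin 34 and acts through PI3 kinase, AKT and ERK. PLX5622 inhibits this receptor and is used to deplete microglia, and the cells that are found afterwards depend on dose and schedule. Old microglia often become autofluorescent, which is usually attributed to lipofuscin, indigestible material held in lysosomes.

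Markers of the labelled cell type were present. All 20 genes of a microglial and macrophage lineage list were in the table, each with a mean above 10 TPM, and Cst3 and Ctss led it. TPM is transcript abundance per transcript length, on a common total. A level is given in TPM, and a change is a difference of log2(TPM + 1), PLX5622 minus AF-high, with its SE. Means are given ± SD over 5 AF-high and 4 PLX5622 libraries. Library totals ran from 956489 to 963145 TPM. The number of reads is unknown, so low values have no counting error here.

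Several whole-library measures had groups that did not overlap. Mitochondrially encoded transcripts took 1.57% to 2.36% of TPM in PLX5622 and 2.37% to 7.66% in AF-high libraries, with the highest shares in AF-high 2 and 3. Satellite-like gene models, picked after their values were seen, took 7.86% to 14.0% and 0.0710% to 2.10%. AF-high libraries lay 0.471 ± 0.0754 log2 units from their group mean (root mean square over genes), against 0.256 ± 0.00641 for PLX5622. AF-low libraries lay at 0.392 to 0.472 and young libraries at 0.228 to 0.258. The fit behind the calls used a common spread for each gene over all groups, although these spreads differ. The satellite-like share was not tested. Of 19 other such measures, 5 had groups that did not overlap, each at p = 0.0159 (exact permutation test, two-sided), the smallest this design allows; adjusted over the 19, p = 0.0603. The part of these measures in the gene results was not tested.

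PLX5622 microglia had less transcript of 62 genes and more of 21 than AF-high microglia. Among the 62 were signalling and lineage genes of macrophages (Ptpn6, Akt1, Spi1, Fcer1g), the scavenger receptor Mrc1 and the cell death kinase Ripk3. The 21 included the chemokine Cxcl13 and the lectin Lgals3. In 28 refits with other settings or fewer libraries, Ptpn6 lost its call in 17, Spi1 in 16 and Akt1 in 14. Lgals3 lost it in 11, Cxcl13 in 8, Ripk3 in 7, Fcer1g in 5 and Mrc1 in 1. These 83 genes are 0.630% of the 13175 tested (0.471% lower, 0.159% higher) at a limma adjusted p under 0.05. In all 83 the 2 groups did not overlap, as was so for 6.55% of all genes tested (4.18% lower, 2.37% higher). The median AF-high level was 90.8 TPM among the genes that fell and 7.01 TPM among those that rose. AF-high is the higher group for the falls and the lower group for the rises, so part of this contrast is built in. The median change was -0.92 among the genes that fell, 1.10 among those that rose, and -0.02 over all genes. Of the 83 genes, 5 passed the filter of 1 TPM in 3 libraries only through the group where they were higher (Hdc, Btc, Sycp2l and Tnfsf8 in PLX5622, Ptpn14 in AF-high); these 5 had to differ to be tested, and their values are a description.

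**Figure D1:**
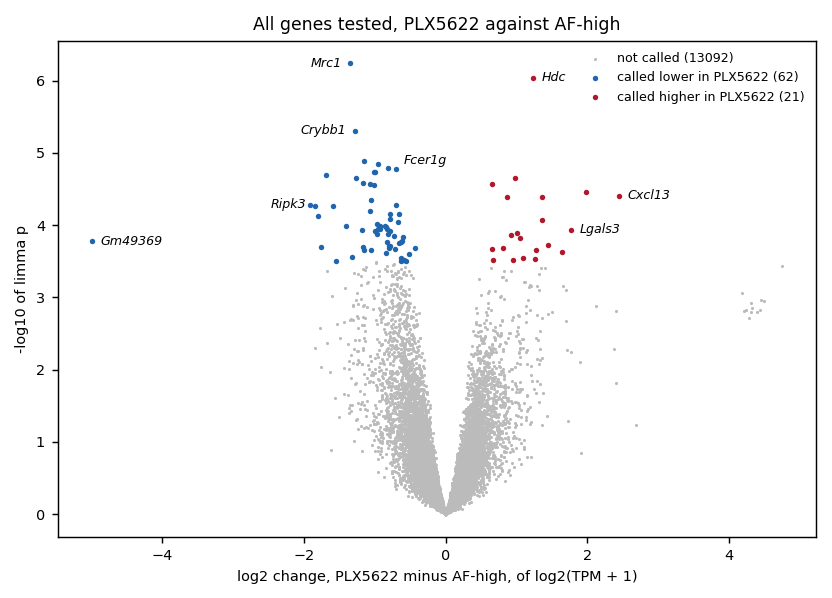
Each point is 1 of the 13175 genes tested, at its log2 change (PLX5622 minus AF-high, of log2(TPM + 1)) and the -log10 of its unadjusted limma p. The 62 blue points were called lower and the 21 red points higher in PLX5622; the grey group right of 4 on the change axis did not pass the threshold.

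The number of calls depended on single libraries, on scaling and on which groups entered the fit. With only the PLX5622 and AF-high libraries in the fit, 7 genes were called (4 lower, 3 higher). Without PLX5622 1, 2, 3 or 4, 3, 1, 2 and 13 genes were called. Without AF-high 1 to 5 in turn, 108, 37, 119, 205 and 31 were called. Leaving out a young library gave 31, 23 and 23 calls, and leaving out an AF-low library gave 171, 124 and 58. Falls made up 74.7% of the calls as reported, 50.7% after quantile normalization (36 lower, 35 higher) and 48.28% after rescaling without numbered gene models, mitochondrial and ribosomal protein genes (28 lower, 30 higher). All 83 genes kept their direction in each of the 28 refits that tested them. Because their groups did not overlap, only a change of scaling could have reversed one. In the other refits the direction was fixed in advance. Mrc1 was the 1 gene that stayed called whichever single library was left out.

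**Figure D2:**
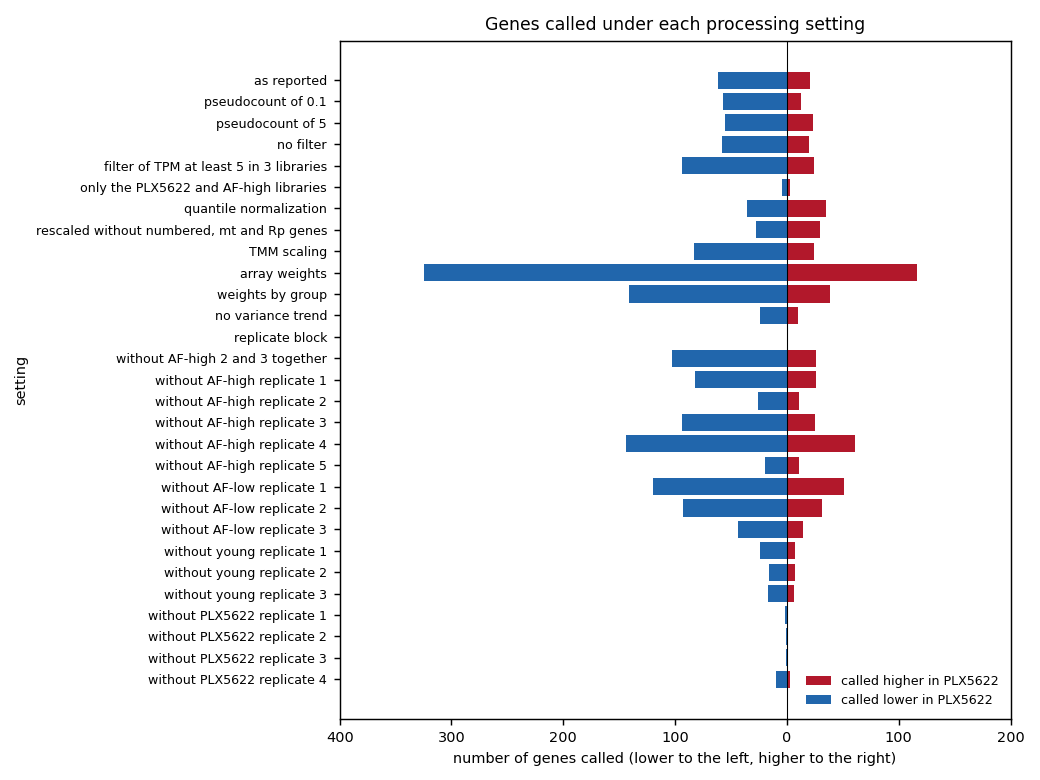
Bars give the number of genes called under each setting of the processing, lower in PLX5622 to the left (blue) and higher to the right (red). As reported, 62 and 21 genes were called; with 1 PLX5622 library left out, no more than 13 were.

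The 83 genes were sorted by function after their values were seen, so the groups are a description. Falls made up 62 of the 83 (74.7%), and the counts below are to be read beside that share. Intracellular signalling held 11 genes and all 11 fell. Of 10 genes of membrane traffic and cytoskeleton, 9 fell, as did 9 of 10 in proteases and protein turnover. Among 16 surface receptors and ligands, 11 fell and 5 rose. Transcription factors and nuclear proteins had 7 falls and 1 rise, and transporters, mitochondria and metabolism had 5 and 3. The remaining genes were 10 numbered models and pseudogenes (5 up, 5 down) and 10 others (5 up, 5 down). In the annotation, 41 of the 83 overlap another gene model, and the labels do not state strand-specific counting, so their reads may be shared.

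The CSF1 receptor pathway is the one that the compound acts on. Of 27 tested members of a list for it, 2 fell and 0 rose. The list's median change was -0.33 against -0.02 for all genes. Of all 13175 genes tested, 0.471% were called lower and 0.159% higher, and 6913 changes were negative and 6262 positive. Counts for this list and the later ones are to be read beside these shares. The receptor itself, Csf1r, was at 1077, 1818, 1391, 1367 and 1495 TPM in AF-high 1 to 5. In PLX5622 1 to 4 it was at 967, 989, 906 and 1053 TPM. The groups did not overlap, since the highest PLX5622 library lay just under AF-high 1, but the difference did not pass the threshold (log2 change of -0.53 ± 0.13 (SE), limma adjusted p = 0.0763). The ligand Csf1 was at 289.8 ± 68.6 TPM in AF-high and 177 ± 60.2 TPM in PLX5622 libraries (log2 change of -0.73 ± 0.21 (SE), limma adjusted p = 0.114); PLX5622 4 lay within the AF-high range and the other 3 below it. Il34 is not analysed here.

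Ptpn6 encodes SHP-1, a phosphatase that dampens receptor signalling in blood cells (chromosome 6, 124720707 to 124738714 on the minus strand). Its levels were 331, 622, 463, 240.2 and 558 TPM in AF-high and 186, 199, 149.7 and 213 TPM in PLX5622 libraries. Every PLX5622 library was below every AF-high library, with AF-high 4 the nearest (log2 change of -1.17 ± 0.24 (SE), limma adjusted p = 0.0426). Akt1, the kinase downstream of PI3 kinase, was at 46.0, 44.2, 45.7, 39.6 and 34.8 TPM in AF-high libraries. It was at 23.2, 26.1, 16.9 and 21.2 TPM in PLX5622 libraries, where the highest remained under the lowest AF-high value (log2 change of -0.92 ± 0.18 (SE), limma adjusted p = 0.0362). Both genes overlap small or antisense models in the annotation (Gm20531 opposite Ptpn6, Mir6939 on the strand of Akt1).

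Other signalling genes outside that list fell as well. Pik3r5, a regulatory subunit of PI3 kinase gamma, was at 142 ± 26.5 TPM in AF-high and 79.7 ± 7.12 TPM in PLX5622 libraries (log2 change of -0.80 ± 0.16 (SE), limma adjusted p = 0.0426). Ksr1, a scaffold of the ERK cascade, was at 12.4 ± 2.08 TPM in AF-high and 5.47 ± 1.46 TPM in PLX5622 libraries (log2 change of -1.07 ± 0.20 (SE), limma adjusted p = 0.032). Prkce, protein kinase C epsilon, was at 35.8 ± 9.25 TPM in AF-high and 17.7 ± 3.69 TPM in PLX5622 libraries (log2 change of -0.96 ± 0.19 (SE), limma adjusted p = 0.0369). These 3 belong to the 11 signalling genes that fell. Lcp2, the adaptor SLP-76, was at 378 ± 39.4 TPM in AF-high and 245 ± 6.95 TPM in PLX5622 libraries (log2 change of -0.62 ± 0.12 (SE), limma adjusted p = 0.0411). Trib1, a pseudokinase that controls protein turnover in myeloid cells, was at 345 ± 52.0 TPM in AF-high and 221 ± 14.4 TPM in PLX5622 libraries (log2 change of -0.63 ± 0.13 (SE), limma adjusted p = 0.0495). Ptpn14, a phosphatase, was low in both groups, at 2.93 ± 1.63 TPM in AF-high and 0.201 ± 0.122 TPM in PLX5622 libraries (log2 change of -1.60 ± 0.29 (SE), limma adjusted p = 0.0289). It reached the filter of 1 TPM in the 5 AF-high and 2 young libraries alone, so it was tested only because it was high in AF-high.

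Among 20 ERK feedback and early target genes, 1 fell and 0 rose, with a median of -0.10. The gene was Myc, a transcription factor of growth, with 111, 141, 136, 149 and 118 TPM in AF-high libraries. PLX5622 libraries had 91.9, 94.7, 79.4 and 84.9 TPM, all below the AF-high values (log2 change of -0.57 ± 0.12 (SE), limma adjusted p = 0.0495). Of 48 cell cycle genes, 0 were called, with a median of -0.06, and 5 had an unadjusted limma p under 0.05, as did 15.3% of all genes tested. Mki67, a marker of dividing cells, was at 4.08 ± 1.30 TPM in AF-high and 4.26 ± 0.899 TPM in PLX5622 libraries (log2 change of 0.07 ± 0.21 (SE), limma adjusted p = 0.908), and the groups overlapped.

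Transcription factors of microglia and macrophages numbered 29, of which 1 fell and 0 rose (median -0.09). Spi1 encodes PU.1, the factor that macrophages need to form (chromosome 2, 91082390 to 91115756 on the plus strand). AF-high libraries had 523, 623, 548, 584 and 740.1 TPM and PLX5622 libraries 404, 411, 334 and 403 TPM. The 4 treated libraries were all below the lowest AF-high library, and PLX5622 3 was lowest (log2 change of -0.63 ± 0.13 (SE), limma adjusted p = 0.0411). Runx1, a factor of blood cell development named here after its values were seen, was at 457 ± 44.7 TPM in AF-high and 324 ± 26.3 TPM in PLX5622 libraries (log2 change of -0.49 ± 0.11 (SE), limma adjusted p = 0.0549), which did not pass the threshold although the groups did not overlap. Among nuclear proteins outside the list, Atn1, a transcriptional corepressor, was at 25.2 ± 5.63 TPM in AF-high and 9.82 ± 1.53 TPM in PLX5622 libraries (log2 change of -1.26 ± 0.21 (SE), limma adjusted p = 0.0231). Pbx2, a homeodomain factor, was at 19.3 ± 3.58 TPM in AF-high and 7.98 ± 0.894 TPM in PLX5622 libraries (log2 change of -1.16 ± 0.20 (SE), limma adjusted p = 0.0231).

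Fcer1g, the shared signalling chain of Fc receptors (chromosome 1, 171229572 to 171234365 on the minus strand), was among the most abundant genes that fell. It was at 1718, 2023, 1767, 1551 and 1528 TPM in AF-high libraries. The PLX5622 libraries had 939, 1146, 972 and 1172 TPM, all below the lowest AF-high library (log2 change of -0.70 ± 0.11 (SE), limma adjusted p = 0.0231). In AF-low libraries it had 1473 to 1561 TPM and in young libraries 1015 to 1060 TPM. It was the 1 called gene of 37 phagocytic and scavenger receptor genes (median -0.12; 0 rose). Fcer1g and Spi1 were also the 2 falls among the 20 lineage genes. The summed level of those 20 genes ran from 37867 to 44392 TPM in PLX5622 and from 38379.7 to 52427 TPM in AF-high libraries, which overlap.

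**Figure D3:**
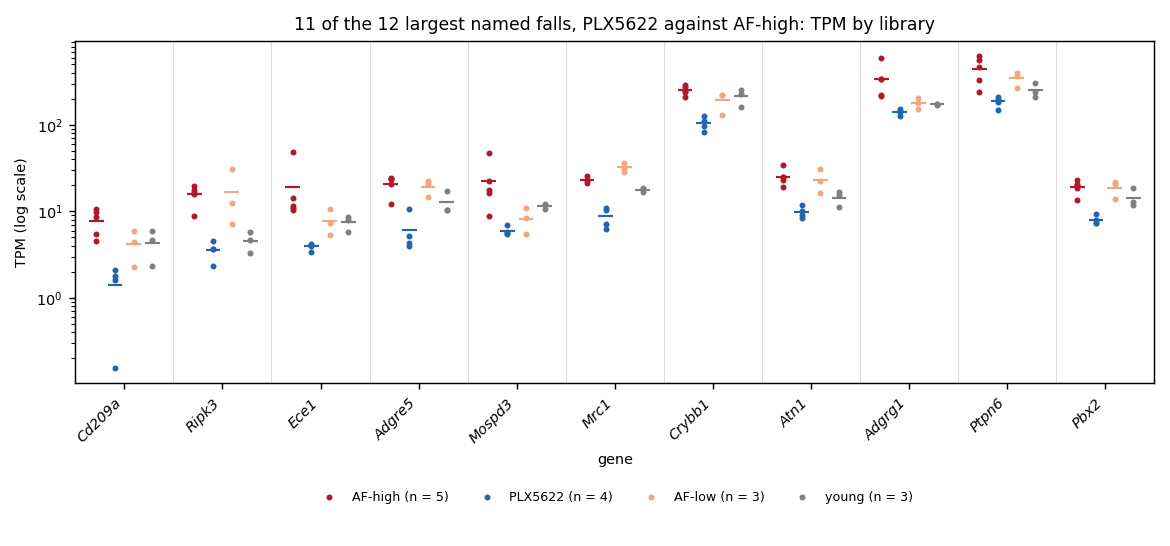
TPM on a log scale in every library for 11 of the 12 largest named falls; points are libraries and short lines are group means, for AF-high (red), PLX5622 (blue), AF-low (orange) and young (grey). The genes were picked from calls whose groups did not overlap, so by selection the 4 PLX5622 points lie below the 5 AF-high points.

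Homeostatic genes mark microglia of the healthy adult brain, and most of the 32 tested did not pass the threshold: 2 fell and 0 rose, with a median of -0.13. Crybb1, a crystallin that microglia express, was at 249.56, 213, 239, 291 and 275 TPM in AF-high libraries. In PLX5622 libraries it was at 81.8, 112, 96.5 and 125.72 TPM, and none came near the lowest AF-high value (log2 change of -1.29 ± 0.19 (SE), limma adjusted p = 0.0215). AF-low libraries had 131 to 225 TPM and young libraries 162 to 254 TPM. Adgrg1, the adhesion receptor GPR56, was at 215, 595, 341, 341 and 222 TPM in AF-high libraries, with AF-high 2 highest. PLX5622 libraries lay close together at 139, 153, 125 and 147 TPM, under all of them (log2 change of -1.18 ± 0.23 (SE), limma adjusted p = 0.0362).

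The best known homeostatic markers overlapped between the groups. P2ry12, a purine receptor, was at 2149.8 ± 657 TPM in AF-high and 1941 ± 161 TPM in PLX5622 libraries (log2 change of -0.10 ± 0.20 (SE), limma adjusted p = 0.871). Tmem119, a membrane protein of microglia, was at 545 ± 56.8 TPM in AF-high and 589 ± 73.1 TPM in PLX5622 libraries (log2 change of 0.11 ± 0.14 (SE), limma adjusted p = 0.767). Cx3cr1, the fractalkine receptor, was at 455 ± 93.9 TPM in AF-high and 359.5 ± 26.3 TPM in PLX5622 libraries (log2 change of -0.32 ± 0.15 (SE), limma adjusted p = 0.315). None of these 3 passed the threshold, and in each the AF-high and PLX5622 libraries overlapped. Siglech, a sialic acid binding lectin, was at 982 ± 75.9 and 840.4 ± 53.2 TPM (limma adjusted p = 0.379). Fcrls, named after its values were seen, was at 779.7 ± 47.0 and 581 ± 29.4 TPM without overlap (limma adjusted p = 0.0825).

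Mrc1, the mannose receptor CD206, marks the macrophages at the borders of the brain (chromosome 2, 14229392 to 14332057 on the plus strand). AF-high libraries had 23.1, 22.9, 23.1, 21.4 and 25.8 TPM, a narrow range. PLX5622 libraries had 7.20, 10.97, 6.33 and 10.5 TPM, and the AF-low and young means were 32.2 and 17.9 TPM. The fall had the smallest adjusted p of all genes (log2 change of -1.34 ± 0.16 (SE), limma adjusted p = 0.00603). Hdc had the same adjusted p, but it was tested only because it was high in PLX5622, so its rank is no result. Mrc1 lost its call in the 8 libraries numbered 1 to 4, with the replicate block and without it. Of 19 border-associated macrophage genes, 1 fell and 0 rose, and the median was -0.50 with 15 of 19 negative. Their summed level ran from 294 to 349 TPM in PLX5622 and from 456 to 573 TPM in AF-high libraries. In these bulk libraries, fewer cells of a type and less RNA per cell cannot be told apart.

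Other genes of that list were lower in mean in PLX5622 without passing the threshold. Stab1, a scavenger receptor named after its values were seen, was at 184 ± 49.0 TPM in AF-high and 112 ± 10.5 TPM in PLX5622 libraries (log2 change of -0.69 ± 0.17 (SE), limma adjusted p = 0.0684). Dab2, an endocytic adaptor named in the same way, was at 107 ± 51.2 TPM in AF-high and 43.1 ± 8.80 TPM in PLX5622 libraries (log2 change of -1.19 ± 0.33 (SE), limma adjusted p = 0.094). Cd209a, a lectin of the DC-SIGN family that is on the dendritic cell list, did fall. Its levels were 10.6, 5.55, 4.598, 8.61 and 9.94 TPM in AF-high and 0.156, 2.11, 1.61 and 1.79 TPM in PLX5622 libraries (log2 change of -1.91 ± 0.34 (SE), limma adjusted p = 0.0289). PLX5622 1 was the lowest by far, and the other 3 were still under all AF-high libraries. Cd209a was the 1 call among 14 dendritic cell genes, and the list's sum overlapped between the groups. That sum was led by Cst3 and Siglech, which are also on the microglial and macrophage lineage list, so it does not single out dendritic cells.

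Ripk3 is the kinase that drives necroptosis (chromosome 14, 55784995 to 55788865 on the minus strand). AF-high libraries had 16.5, 8.79, 17.6, 19.5 and 16.0 TPM. PLX5622 libraries had 3.68, 2.35, 3.68 and 4.57 TPM, and AF-high 2 was the AF-high library nearest to them (log2 change of -1.85 ± 0.33 (SE), limma adjusted p = 0.0289). It was the 1 call among 34 apoptosis and survival genes (median -0.14). The AF-low mean was 16.8 TPM and the young mean 4.58 TPM, the latter with no test against PLX5622 made here.

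Among 51 cytokine and NF-kappaB genes, 1 rose and 1 fell, the median was -0.23, and 38 of 51 were negative. Cxcl13, a chemokine that attracts B cells (chromosome 5, 95956951 to 95961068 on the plus strand), rose most. Its levels were 6.20, 0.252, 6.70, 3.03 and 2.43 TPM in AF-high and 27.0, 14.5, 23.4 and 19.5 TPM in PLX5622 libraries. All 4 treated libraries exceeded all AF-high ones, and AF-high 2 was close to 0 (log2 change of 2.45 ± 0.43 (SE), limma adjusted p = 0.0266). The means were 12.3 TPM in AF-low and 0.516 TPM in young libraries.

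Cd80, a ligand that costimulates T cells (chromosome 16, 38455561 to 38496335 on the plus strand), fell. It was at 107, 89.3, 87.8, 64.5 and 111 TPM in AF-high libraries and 35.6, 40.8, 46.0 and 51.5 TPM in PLX5622 libraries. The lowest AF-high library, AF-high 4, was still above all PLX5622 libraries (log2 change of -1.05 ± 0.19 (SE), limma adjusted p = 0.0278). Il1b, the cytokine interleukin 1 beta, was at 1049, 411, 324, 297 and 1275 TPM in AF-high libraries, with AF-high 1 and 5 far above the other 3. PLX5622 libraries had 285, 242, 229 and 269.9 TPM, lower than all of them, yet the difference did not pass the threshold (log2 change of -1.12 ± 0.40 (SE), limma adjusted p = 0.195). Tnf, tumour necrosis factor, overlapped between the groups at 355 ± 104 and 330.0 ± 53.1 TPM (limma adjusted p = 0.92). Tlr4, the lipopolysaccharide receptor, was at 114 ± 21.6 TPM in AF-high and 70.5 ± 5.78 TPM in PLX5622 libraries (log2 change of -0.66 ± 0.17 (SE), limma adjusted p = 0.0779) and Nfkbiz, a regulator of NF-kappaB, at 1472 ± 233 TPM in AF-high and 2212 ± 141 TPM in PLX5622 libraries (log2 change of 0.60 ± 0.15 (SE), limma adjusted p = 0.0785); both were named after their values were seen and neither passed.

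**Figure D4:**
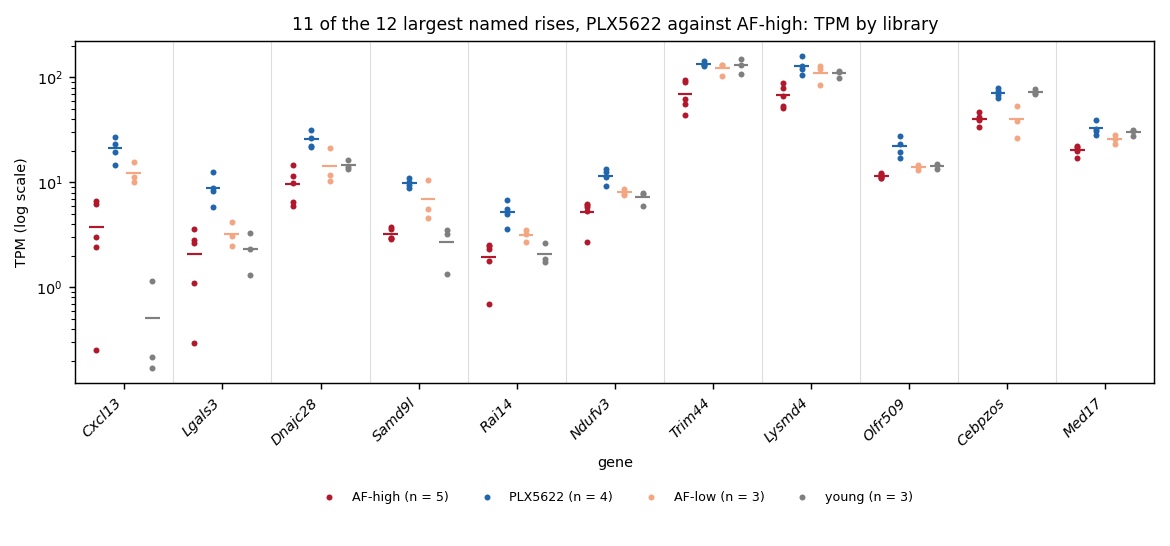
TPM on a log scale in every library for 11 of the 12 largest named rises; points are libraries and short lines are group means, for AF-high (red), PLX5622 (blue), AF-low (orange) and young (grey). The genes were picked from calls whose groups did not overlap, so by selection the 4 PLX5622 points lie above the 5 AF-high points.

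Disease-associated microglia carry a gene programme that has been described around plaques and in degeneration. Of 32 such genes, 1 rose and 0 fell, with a median of 0.11 and 23 of 32 positive. Lgals3, the lectin galectin-3 (chromosome 14, 47367751 to 47386160 on the plus strand), was at 2.80, 1.10, 0.294, 2.63 and 3.63 TPM in AF-high libraries. PLX5622 libraries had 8.26, 12.5, 5.76 and 8.88 TPM, each above every AF-high library (log2 change of 1.77 ± 0.34 (SE), limma adjusted p = 0.0362). Clec7a, the receptor dectin-1, had 13.1, 8.34, 16.6, 36.0 and 15.8 TPM in AF-high libraries, where AF-high 4 was highest. In PLX5622 libraries it had 44.6, 42.9, 40.0 and 39.3 TPM, above all of them, and just missed the threshold (log2 change of 1.32 ± 0.30 (SE), limma adjusted p = 0.0549). Cst7, cystatin F, was at 23.6 ± 10.7 TPM in AF-high and 51.1 ± 8.28 TPM in PLX5622 libraries (log2 change of 1.17 ± 0.29 (SE), limma adjusted p = 0.0751), also without overlap. Axl, a receptor kinase, was at 14.5 ± 8.90 TPM in AF-high and 27.4 ± 7.17 TPM in PLX5622 libraries (log2 change of 1.04 ± 0.34 (SE), limma adjusted p = 0.16), with overlap. Clec7a, Cst7 and Axl were named after their values were seen.

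Other members of the programme did not pass the threshold. Apoe, apolipoprotein E, was at 539 ± 282 TPM in AF-high and 620.1 ± 145 TPM in PLX5622 libraries (log2 change of 0.33 ± 0.32 (SE), limma adjusted p = 0.665). Trem2, a lipid-sensing receptor, was at 515 ± 139 TPM in AF-high and 510.3 ± 39.8 TPM in PLX5622 libraries (log2 change of 0.03 ± 0.20 (SE), limma adjusted p = 0.958). Itgax, the integrin CD11c, was at 8.47 ± 1.86 TPM in AF-high and 10.6 ± 2.83 TPM in PLX5622 libraries (log2 change of 0.29 ± 0.26 (SE), limma adjusted p = 0.646). Spp1, osteopontin, was at 13.9 ± 8.63 and 18.5 ± 3.34 TPM (limma adjusted p = 0.517). In these 4 genes the AF-high libraries spanned the PLX5622 means.

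The type I interferon list had 58 tested genes, of which 1 rose and 1 fell, and its median was 0.16 with 40 of 58 positive. Samd9l, an interferon-induced gene that restrains growth, was at 3.62, 2.95, 2.94, 2.86 and 3.77 TPM in AF-high libraries. The PLX5622 libraries were at 8.82, 9.44, 11.04 and 9.99 TPM, more than every AF-high library (log2 change of 1.36 ± 0.24 (SE), limma adjusted p = 0.0266). Stat2, a transcription factor of interferon signalling (chromosome 10, 128270559 to 128292849 on the plus strand), went the other way. It had 970.0, 1777, 1444, 1197 and 1189 TPM in AF-high and 649, 837, 624 and 827 TPM in PLX5622 libraries, without overlap (log2 change of -0.82 ± 0.17 (SE), limma adjusted p = 0.0411). Oas1g and Ifi204, interferon-induced genes with close paralogs, are uncertain because near-identical family members can share reads.

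No antigen presentation or complement gene passed. Of 28 MHC and antigen presentation genes, 0 were called by limma and 6 had an unadjusted p under 0.05, against 15.3% of all genes tested (median 0.05). Cd74, the class II invariant chain, was at 81.6, 90.7, 78.6, 70.1 and 74.7 TPM in AF-high libraries. PLX5622 libraries had 58.1, 51.8, 43.0 and 59.1 TPM, below all of these, with an adjusted p just over the threshold (log2 change of -0.58 ± 0.13 (SE), limma adjusted p = 0.0541). B2m, beta-2 microglobulin, overlapped at 7997 ± 609.9 and 8461 ± 706 TPM (limma adjusted p = 0.8). Of 18 complement genes, 0 were called and 6 had an unadjusted limma p under 0.05, beside the same 15.3% (median -0.26). C4b was at 10.3 ± 5.08 TPM in AF-high and 3.60 ± 0.512 TPM in PLX5622 libraries (log2 change of -1.19 ± 0.27 (SE), limma adjusted p = 0.0556) and C3 at 1.02 ± 0.475 TPM in AF-high and 3.41 ± 1.39 TPM in PLX5622 libraries (log2 change of 1.11 ± 0.26 (SE), limma adjusted p = 0.0604); both components had groups that did not overlap, in opposite directions. C1qa, a chain of C1q, overlapped, at 1070.2 ± 554 and 775 ± 99.3 TPM.

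Lysosomal genes were of interest because autofluorescence defined the comparison group. Of 64 hydrolases and lysosomal membrane proteins, 0 were called by limma, 17 had an unadjusted p under 0.05 (15.3% of all genes did), and the median was -0.10. Of 18 vacuolar ATPase subunits, 0 were called and 2 had an unadjusted p under 0.05, again beside 15.3% of all genes. Cd68, a lysosomal glycoprotein of macrophages, was at 1206, 1795, 1019, 1041 and 1374 TPM in AF-high and 966, 934, 847 and 981 TPM in PLX5622 libraries, without overlap (log2 change of -0.44 ± 0.15 (SE), limma adjusted p = 0.184). Lamp1, a lysosomal membrane protein, overlapped (588 ± 100.1 and 508 ± 39.0 TPM, limma adjusted p = 0.469). Psap, the precursor of the saposins, was at 351 ± 61.9 TPM in AF-high and 229 ± 34.1 TPM in PLX5622 libraries (log2 change of -0.61 ± 0.14 (SE), limma adjusted p = 0.0549). Rab7, the GTPase of late endosomes, is outside the list and fell, at 627 ± 139.8 TPM in AF-high and 293 ± 29.9 TPM in PLX5622 libraries (log2 change of -1.07 ± 0.18 (SE), limma adjusted p = 0.0231). Arf1, a GTPase of the Golgi, fell too, at 398 ± 51.1 TPM in AF-high and 249.96 ± 20.3 TPM in PLX5622 libraries (log2 change of -0.66 ± 0.12 (SE), limma adjusted p = 0.033). The protease Ctsd did not pass, at 2971 ± 247 and 2703 ± 374 TPM (limma adjusted p = 0.679).

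The largest fall of any gene belonged to the numbered model Gm49369, which overlaps Ctsd and Ifitm10 on the same strand. It had 19.6, 2065, 1381, 166 and 516 TPM in AF-high libraries, over a wide range, and 7.68, 8.15, 12.6 and 12.2 TPM in PLX5622 libraries (log2 change of -4.99 ± 1.01 (SE), limma adjusted p = 0.0411). AF-high 1 was the AF-high library nearest to the treated ones. Because the model overlaps Ctsd, its separate value is uncertain.

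Slc11a2, the iron transporter DMT1, was the 1 call among 14 iron genes. It was at 118, 138, 88.2, 128 and 108 TPM in AF-high libraries and 56.8, 63.3, 46.3 and 61.6 TPM in PLX5622 libraries, all lower (log2 change of -1.01 ± 0.17 (SE), limma adjusted p = 0.0231). Ucp2, a carrier of the inner mitochondrial membrane, fell, at 762 ± 111 TPM in AF-high and 458 ± 59.1 TPM in PLX5622 libraries (log2 change of -0.73 ± 0.14 (SE), limma adjusted p = 0.0384). Ndufv3, a subunit of complex I, rose, at 5.22 ± 1.43 TPM in AF-high and 11.6 ± 1.78 TPM in PLX5622 libraries (log2 change of 1.05 ± 0.21 (SE), limma adjusted p = 0.0392), as the 1 call among 71 nuclear-encoded respiratory genes, of which 54 were negative (median -0.21). Of the 13 mitochondrially encoded genes 0 were called, 9 had an unadjusted limma p under 0.05 (15.3% of all genes tested), all 13 were negative (6913 of 13175 over all genes), and the median was -0.84; without AF-high 2 and 3 together it was -0.24.

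In 7 other lists limma called 0 genes. Genes with an unadjusted p under 0.05 numbered 5 of 40 for autophagy, 5 of 39 for lipid handling and cholesterol, 10 of 38 for oxidative stress, 3 of 24 for glycolysis, 6 of 32 for senescence and DNA damage, 12 of 40 for integrins and motility, and 13 of 42 for immediate early and heat shock genes. Over all genes tested the share was 15.3%. Their medians ran from -0.15 for the integrin list to 0.07 for the senescence list. Cdkn1a, which encodes the cell cycle inhibitor p21, was at 661 ± 223 TPM in AF-high and 391 ± 52.8 TPM in PLX5622 libraries (log2 change of -0.69 ± 0.30 (SE), limma adjusted p = 0.278), with overlap. Gstm1, a glutathione transferase, was at 24.9 ± 11.4 TPM in AF-high and 8.71 ± 1.70 TPM in PLX5622 libraries (log2 change of -1.31 ± 0.33 (SE), limma adjusted p = 0.0779), without overlap. Itgam, the integrin CD11b, was at 528 ± 94.6 TPM in AF-high and 367 ± 40.5 TPM in PLX5622 libraries (log2 change of -0.51 ± 0.13 (SE), limma adjusted p = 0.0763), also without overlap and named in part after its values were seen.

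**Figure D5:**
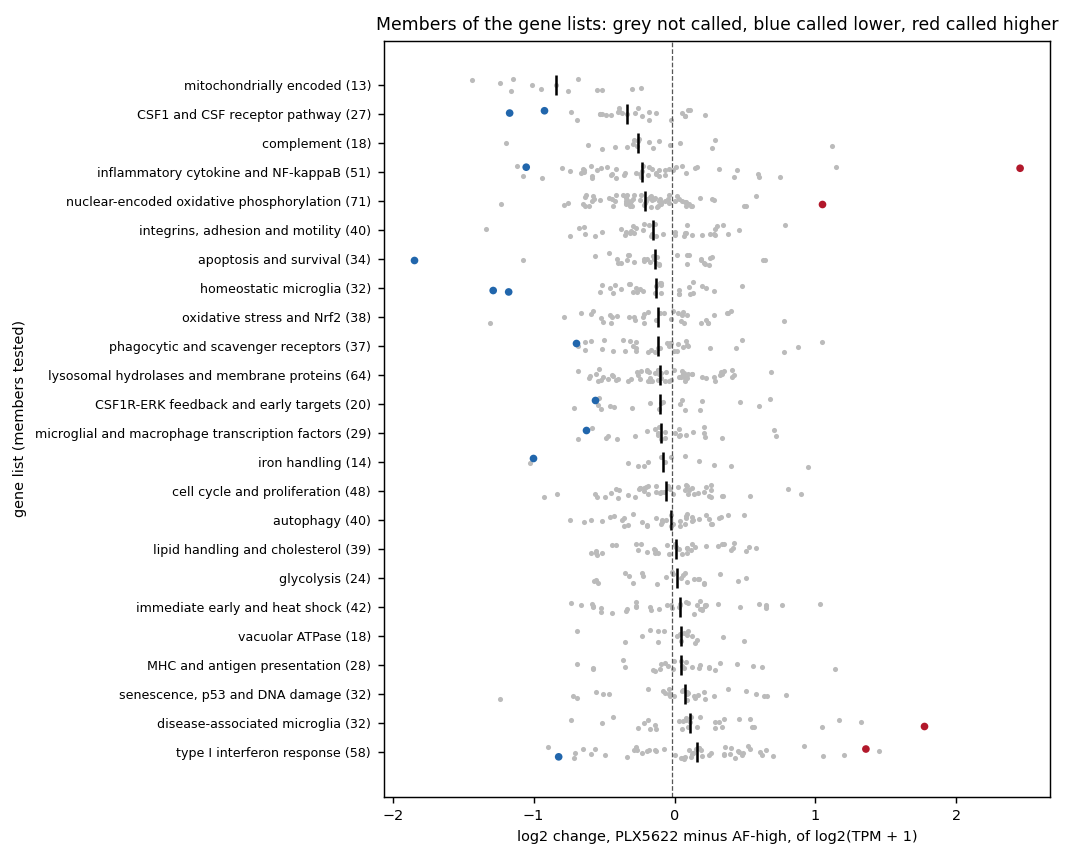
Each point is 1 gene of a list, at its log2 change (PLX5622 minus AF-high); grey points were not called, blue were called lower and red higher. Black bars are list medians and the dashed line is the median of all genes, -0.02; mitochondrially encoded genes have the lowest median, -0.84, with 0 calls.

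The remaining large falls came from varied proteins. Ece1, endothelin-converting enzyme, was at 19.1 ± 16.6 TPM in AF-high and 3.93 ± 0.381 TPM in PLX5622 libraries (log2 change of -1.76 ± 0.36 (SE), limma adjusted p = 0.0426), with AF-high 2 above the rest. Adgre5, the adhesion receptor CD97, was at 20.9 ± 5.11 TPM in AF-high and 6.05 ± 3.13 TPM in PLX5622 libraries (log2 change of -1.68 ± 0.28 (SE), limma adjusted p = 0.0231); AF-high 4 was close to PLX5622 4. Mospd3, a membrane protein, was at 22.4 ± 14.5 TPM in AF-high and 5.97 ± 0.703 TPM in PLX5622 libraries (log2 change of -1.55 ± 0.33 (SE), limma adjusted p = 0.0495). In each of the 3, every PLX5622 library was below every AF-high library, as the rule for naming large falls required.

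The remaining large rises were also of varied kinds. Dnajc28, a J-domain protein, was at 9.71 ± 3.64 TPM in AF-high and 25.7 ± 4.68 TPM in PLX5622 libraries (log2 change of 1.37 ± 0.26 (SE), limma adjusted p = 0.0362). Rai14, which associates with actin, was at 1.96 ± 0.760 TPM in AF-high and 5.24 ± 1.35 TPM in PLX5622 libraries (log2 change of 1.10 ± 0.23 (SE), limma adjusted p = 0.0495). Trim44, a tripartite motif protein, was at 69.4 ± 22.2 TPM in AF-high and 135 ± 5.59 TPM in PLX5622 libraries (log2 change of 1.01 ± 0.20 (SE), limma adjusted p = 0.0369). AF-low libraries had 102 to 132 TPM of Trim44 and young libraries 107 to 151 TPM. These 3 genes were lower in AF-high libraries without any overlap, as the rule for naming large rises required. Med17, part of the Mediator complex, stood at 20.3 ± 2.01 TPM in AF-high and 32.7 ± 4.86 TPM in PLX5622 libraries (log2 change of 0.66 ± 0.14 (SE), limma adjusted p = 0.0426). Lysmd4 was at 67.5 ± 16.2 TPM in AF-high and 128 ± 22.9 TPM in PLX5622 libraries (log2 change of 0.93 ± 0.18 (SE), limma adjusted p = 0.0369) and Cebpzos at 40.2 ± 4.61 TPM in AF-high and 71.4 ± 7.13 TPM in PLX5622 libraries (log2 change of 0.82 ± 0.17 (SE), limma adjusted p = 0.0426). Olfr509, named as an olfactory receptor, was at 11.5 ± 0.606 TPM in AF-high and 22.01 ± 4.61 TPM in PLX5622 libraries (log2 change of 0.86 ± 0.15 (SE), limma adjusted p = 0.0266).

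Markers of other cells were checked as lists, over the members that were measured. These were 10 of 25 monocyte, 7 of 24 T and NK, 10 of 20 oligodendrocyte and 10 of 24 neuron genes. Hdc, which makes histamine and stands on the neutrophil list, rose from near 0: 0.362, 0.106, 0.221, 0.262 and 0.237 TPM in AF-high libraries. PLX5622 libraries had 1.56, 2.22, 2.04 and 1.86 TPM, a low level but above every AF-high library (log2 change of 1.24 ± 0.16 (SE), limma adjusted p = 0.00603). The gene reached the filter of 1 TPM in these 4 libraries and 2 young ones alone, so it was tested only because it was high in PLX5622. Of 18 neutrophil genes listed, 5 were in the table; S100a8, S100a9, Ly6g and Elane were not analysed here. The neutrophil sum overlapped between the groups, at 243 to 285 and 221 to 374 TPM. Ccr2, a monocyte chemokine receptor, was at 4.62 ± 1.12 and 5.83 ± 1.11 TPM (limma adjusted p = 0.51). Monocyte, T and NK, oligodendrocyte and neuron sums overlapped as well. The astrocyte sum, led by Glul and Slc1a3, was 436 to 592 TPM in PLX5622 and 526 to 759.6 TPM in AF-high libraries (exact permutation p = 0.0317, adjusted 0.0862); Gfap was not analysed here. The endothelial sum, led by Bsg and Slc2a1, was 274 to 325 TPM in PLX5622 and 307 to 486 TPM in AF-high libraries (exact permutation p = 0.0476, adjusted 0.113); Cldn5 was not analysed here. Both were lower on average in PLX5622, with ranges that overlapped. The oligodendrocyte precursor sum of 4 genes was higher on average, 1.67 to 2.84 TPM in PLX5622 and 0.201 to 1.82 TPM in AF-high libraries (exact permutation p = 0.0317, adjusted 0.0862); Olig1, Olig2 and Sox10 were not analysed here. The sum of 9 B and plasma cell genes, led by Ighm, did not overlap between the groups, at 428 to 494 against 503 to 675 TPM. The part of these marker levels in the gene results was not tested.

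Promoter sequences were available for 45 of the 62 genes that fell and 15 of the 21 that rose (RefSeq, GRCm38.p6, 250 bases before to 50 after the start). They are shown for 4 genes that fell and whose promoters hold a word searched for, with the word in capitals. Spi1 itself fell, and the PU.1 word GAGGAAG, on either strand, occurred in 6 of 45 promoters of genes that fell (13.3%) and in 15.8% of those of all genes tested. The interferon response word (GAAA and GAAA with any 2 bases between) was in 3 of 45 (6.67%) against 4.09%. The AP-1 word TGANTCA was in 8.89% against 6.46%, and the E-box CACGTG, which Myc can bind, in 8.89% against 11.3%. In the 15 promoters of genes that rose, the AP-1 word was in 2 (13.3%), the PU.1 word in 2 (13.3%), the E-box in 1 (6.67%) and the interferon word in 0. All these shares are a description. Mrc1 (chr2:14229164-14229463, plus strand) holds the PU.1 word on its other strand, as CTTCCTC, at 2 places. Stat2 (chr10:128270248-128270547, plus strand) holds the interferon word on its other strand. Cd80 (chr16:38458683-38458982, plus strand) holds the AP-1 word and Ripk3 (chr14:55788808-55789107, minus strand) the E-box. The Cd80 window lies inside the gene coordinates given above, not at their first base.
Mrc1: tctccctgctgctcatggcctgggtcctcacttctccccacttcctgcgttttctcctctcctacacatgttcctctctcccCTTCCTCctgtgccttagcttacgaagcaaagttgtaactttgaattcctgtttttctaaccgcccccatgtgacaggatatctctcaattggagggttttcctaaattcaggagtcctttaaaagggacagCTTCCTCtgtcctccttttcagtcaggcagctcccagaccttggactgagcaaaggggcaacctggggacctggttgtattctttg
Stat2: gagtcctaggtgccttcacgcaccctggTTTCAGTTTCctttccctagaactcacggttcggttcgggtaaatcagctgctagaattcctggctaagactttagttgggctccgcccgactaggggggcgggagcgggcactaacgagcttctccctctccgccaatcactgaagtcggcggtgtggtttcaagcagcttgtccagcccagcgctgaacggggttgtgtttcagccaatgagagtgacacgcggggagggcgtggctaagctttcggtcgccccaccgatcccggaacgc
Cd80: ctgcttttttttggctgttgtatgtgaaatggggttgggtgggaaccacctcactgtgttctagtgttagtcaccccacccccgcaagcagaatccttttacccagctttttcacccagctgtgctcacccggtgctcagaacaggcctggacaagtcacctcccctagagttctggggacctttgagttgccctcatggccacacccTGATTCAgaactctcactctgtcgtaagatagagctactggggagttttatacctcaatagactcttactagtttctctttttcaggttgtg
Ripk3: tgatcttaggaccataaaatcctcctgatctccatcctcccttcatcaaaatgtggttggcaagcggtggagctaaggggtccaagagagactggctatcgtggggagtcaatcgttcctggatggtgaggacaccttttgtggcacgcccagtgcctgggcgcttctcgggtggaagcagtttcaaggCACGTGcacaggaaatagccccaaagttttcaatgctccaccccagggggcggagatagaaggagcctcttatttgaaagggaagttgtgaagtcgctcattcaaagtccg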

How the data were processed

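RNA of sorted microglia was kept in RNAprotect, purified on RNeasy columns, amplified with the Ovation system and made into low-input libraries, per the labels. The authors deposited TPM values for 13834 genes; per the submitters' processing notes they used FastQC 0.11.8, Salmon 1.0.0, DESeq2 (no version) and GRCm38 (mm10). The table holds no 0, so a gene absent from a library was not tested. The symbols of 19 lines had become dates.

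The 13175 genes that reached a TPM of 1 in 3 or more libraries were fitted as log2(TPM + 1) with limma 3.58.1 in R 4.3.3, all 15 libraries in 4 groups with a variance trend, two-sided, with Benjamini-Hochberg adjustment over all genes. The fold scale understates low genes. Scripts were tested on simulated data. The TMM alternative scaled TPM by an unweighted trimmed mean of log ratios, with no count model; this form was chosen after the data were seen, in place of a weighted form from a count package that had already been run. Per-library tests used scipy 1.17.1, and coordinates came from GENCODE M21 on GRCm38. AL607107.2 had no entry there.

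Members and gene lists were chosen with earlier results of these data known. Named genes are the 12 largest falls and rises called with a mean of at least 5 TPM and no overlap, up to 4 called members of each list or its 2 with the smallest p, and a fixed set, of which 3 genes are not reported here; 13 genes and the functional groups were added after values were seen. Numbered models, pseudogenes, mitochondrial and ribosomal protein genes were passed over among falls and rises; Gm49369 is the exception. Alternatives covered pseudocount, filter, groups, scaling, weights, trend, block and single libraries.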

Additional observations from a re-analysis of the deposited data

Results flagged for a closer look

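In 19 of 360 groups of 4 or 5 values (5.28%), 1 library stood apart by Dixon's criterion, meaning that its gap to the nearest other library took up most of the group's range. Chance gives about 1 in 20 such groups, and no cause was tested.

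Among genes that fell in PLX5622, AF-high 2 stood above the other AF-high libraries for 2. Ece1 was at 48.7 TPM (others 10.4 to 14.2) there. Gabbr1 was at 265 TPM (others 162 to 189). AF-high 4 was lowest for Adgre5, at 12.1 TPM (others 20.9 to 24.2). PLX5622 3 was lowest for Spi1, at 334 TPM (others 403 to 411). PLX5622 4 was highest for Mospd3, at 7.01 TPM (others 5.52 to 5.73). For Ndufv3, which rose, AF-high 3 was lowest, at 2.73 TPM (others 5.32 to 6.17).

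Genes that were not called made up most of the rest. In PLX5622 4, Csf1 was at 266 TPM (others 137 to 156), Ctsd was at 3264 TPM (others 2509 to 2524), Jund was at 57.6 TPM (others 42.0 to 42.8) and Tpp1 was at 208 TPM (others 172 to 177). In PLX5622 2, Cat was at 39.0 TPM (others 34.5 to 34.8) and Siglech was at 919 TPM (others 806 to 825). In PLX5622 3, C3 was at 5.47 TPM (others 2.42 to 2.93). In AF-high 1, Epb42 was at 0.977 TPM (others 5.28 to 6.97) and Glul was at 427 TPM (others 597 to 649). In AF-high 2, Stab1 was at 270.2 TPM (others 147 to 172). Summed astrocyte markers were at 526 TPM (others 718 to 759.6) in AF-high 1. Summed oligodendrocyte markers were at 1404 TPM (others 914 to 935) in AF-high 2, and summed erythroid markers at 15.5 TPM (others 12.2 to 12.5) in PLX5622 2.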

How the results depend on the processing

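The 83 called genes kept their direction in all 28 refits that tested them, which apart from the scalings was fixed by their non-overlapping groups. None kept its call under every one, since the replicate block called no gene (Mrc1 lost its call there and, with an added fit, in the block's 8 libraries without it). Of the 83, 38 lost their call under at least 14 of the refits. As reported, 21 genes were called higher and 62 lower. The calls were 13 higher and 57 lower with a pseudocount of 0.1, 24 higher and 94 lower with a filter of 5 TPM, 3 higher and 4 lower with those 2 groups alone in the fit, 35 higher and 36 lower after quantile normalization and 30 higher and 28 lower after rescaling. They were 116 higher and 325 lower with array weights, 39 higher and 141 lower with weights by group, 10 higher and 24 lower without the variance trend and 26 higher and 103 lower without AF-high 2 and 3 together. Leaving out 1 library gave 0 to 61 higher and 1 to 144 lower. With no test, 312 genes were higher and 551 lower without overlap. The cause of these shifts was not tested.

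A replicate block over the 8 libraries numbered 1 to 4 gave 0 and 0 calls (1468 genes at an unadjusted limma p under 0.05). The same 8 libraries with no block, a fit added after the data were seen, gave 0 and 0 as well (1663 genes). Deviations of same-numbered libraries correlated at -0.0226, 0.0206, 0.0872 and 0.019. These few values cannot show whether same-numbered libraries shared more than a number. Of the 4 PLX5622 libraries, 1, number 3, correlated best with its own number.

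Leaving out 1 library, the change ranged from -0.26 to 0.06 for P2ry12, from -0.02 to 0.19 for Mki67 and from -0.22 to 0.06 for Tnf, and the difference in summed monocyte markers from -74.6 to 17.3 TPM and in pericyte markers from -3.59 to 1.54 TPM. Gene values that changed sign were not called in either fit. Without AF-high 2 and 3 together the changes were -0.12 for Apoe, 0.14 for P2ry12 and -0.19 for Trem2. Without AF-high 3 they were 0.0553 for P2ry12 and -0.15 for Trem2. Quantile normalization gave -0.0397 for Abcc9, -0.13 for B2m and 0.0584 for Tnf, and rescaling gave 0.0044 for P2ry12 and 0.0291 for Tnf. Tnf was 0.0645 with the block, with its 8 libraries unblocked and without AF-high 5, and 0.0359 without PLX5622 4. Trem2 was -0.0276 with array weights and -0.0095 without PLX5622 4. Mki67 was -0.0168 without AF-high 1 and -0.0204 without PLX5622 2. The difference in summed monocyte markers became 11.6, 17.3 and 14.4 TPM without AF-high 1, AF-high 4 or PLX5622 3. That in pericyte markers became 0.00361, 0.485 and 1.54 TPM without AF-high 1, 2 or 5.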
